A study of Arabidopsis thaliana with 4 samples.

Results

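The transcripts of 2 Arabidopsis thaliana genes, AT2G43590 and AT4G01870, were followed in roots with and without potassium. They are 2 of the 13363 genes that had a probe set with a single annotated gene on the array, and each had 1 probe set, 260560_at for AT2G43590 and 255543_at for AT4G01870. They were chosen from the measured values, for a high signal in starved roots at 96 h beside similar signals in the other roots. All of their values below are therefore a description, without a test. AT2G43590 lies on chromosome 2 and AT4G01870 on chromosome 4.

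AT2G43590 belongs to the chitinase family. Chitinases are enzymes that cut chitin, a polymer of fungal cell walls and insect cuticles that plants do not make. Many plant chitinases are counted among the pathogenesis-related proteins, and their transcripts are known to respond to pathogens, wounding and stress hormones. AT4G01870 is catalogued in Arabidopsis as related to TolB, a protein known from the cell envelope of Escherichia coli. Its own function in plants is little known. Potassium is the main cation of plant cells, and roots without it are known to draw on oxidative and hormone signals that are shared with other stresses.

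The plants were of the accession Col-0 and carried no transgene or mutation named in the labels. They grew in hydroponic culture, with roots in liquid nutrient solution, at 22 °C with a 16 h photoperiod, and the RNA came from mixed roots of plants 4 to 5 weeks old. Control plants were moved to fresh control solution with 0.5 mM KH2PO4 and 1.25 mM KNO3. Starved plants were moved to a solution with 0.5 mM H3PO4 and 1.25 mM HNO3 in their place, so the starved solution differed from the control in its acids as well as in potassium. Roots were taken 48 h or 96 h after the move. Each of the 4 groups, control and starved at 48 h and control and starved at 96 h, was measured on 1 Affymetrix ATH1 array.

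With 1 array in each group there was no replicate check, and that number sets the limit of what the values can tell apart. The signals had been computed by the authors with MAS5, and their medians lay between 46.8 and 47.8 on the 4 arrays. Of 22746 probe sets, 13998 passed a filter on low signal, both of the genes among them. In RNA from whole roots, fewer cells of a type and less RNA per cell cannot be told apart. Of 12 root markers 3 had a named probe set, and their summed signal was 309.2 (control) and 445.5 (starved) at 48 h, against 251.5 and 359.2 at 96 h. The sum was thus higher in starved roots at both times, as were the root hair genes EXPA7 and EXPA18 in it. The cortex marker AT1G62500 was lower in starved roots at 48 h (42.7 control, 32.3 starved) and higher at 96 h (79.1 and 110.9). The part of these markers in the results below was not tested. Of 12 markers of green tissue only RCA, the activase of Rubisco, had one, and its control signal was 133.6 at 48 h and 237.0 at 96 h, with 127.8 and 180.2 in starved roots.

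The first question was when in starvation the transcripts of the genes stood above the control. AT2G43590 read 79.1 at 48 h and 56.4 at 96 h in the control, and 63.9 and 210.2 when starved. The starved roots at 96 h thus held the highest signal, and the other 3 arrays lay close to each other. AT4G01870 gave 36.5 (control) and 48.1 (starved) at 48 h, against 45.5 and 154.8 at 96 h. Its order differed below the top, where the control at 48 h was lowest and the starved roots at 48 h came second.

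**Figure D1:**
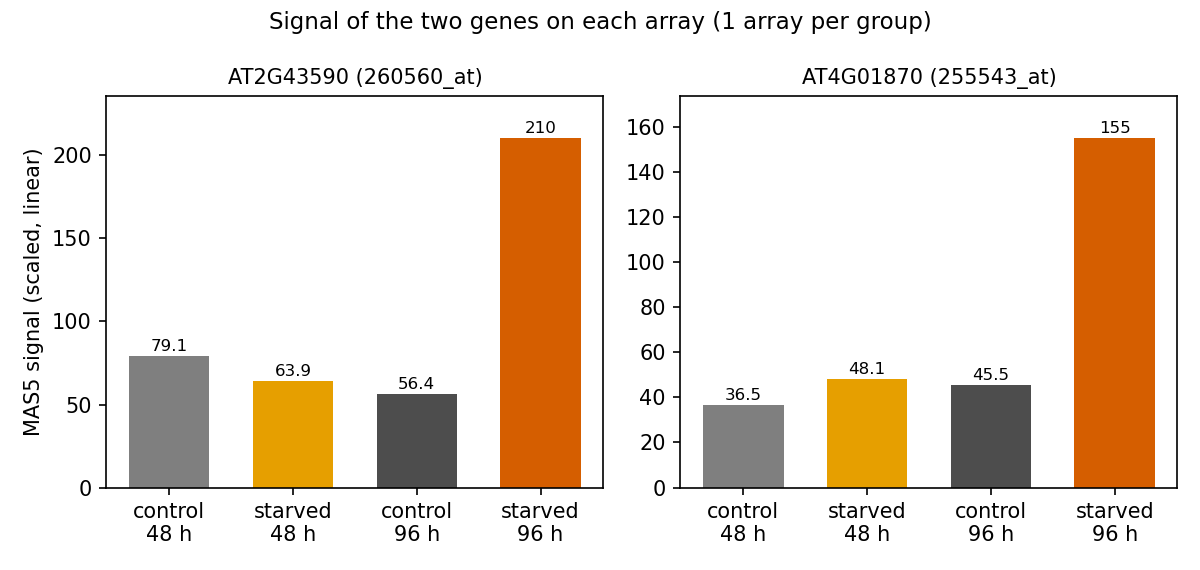
MAS5 signal on a linear scale (vertical axis, one scale for each gene) of AT2G43590 and AT4G01870 on each of the 4 arrays, 1 array per bar and no error bar. The starved 96 h array stands highest for both, at 210.2 and 154.8, and no other bar is above 79.1 for AT2G43590 or above 48.1 for AT4G01870.

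Fold changes were taken on log2(signal + 16), a scale that understates the changes of dim probe sets. At 96 h AT2G43590 was 3.12-fold higher in starved than in control roots, a log2 difference of 1.64. AT4G01870 was 2.78-fold higher, a log2 difference of 1.47. The plain ratios of the signals were 3.72 and 3.40. At least 2-fold higher signals were found at this time for 50 of the 13998 tested probe sets, 0.357% of them. AT2G43590 held place 4 and AT4G01870 place 11 among all tested probe sets, and places 2 and 3 among the 7587 with a single gene. Since the genes were chosen on this difference, nothing is read from their places. Just above them stood AT4G01390 (log2 difference 1.94) and just below the defensin PDF2.1 (1.30), both of which were already higher in starved roots at 48 h, by 0.62 and 0.66 on the log2 scale.

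At 48 h the starvation differences were small for both genes and opposite in direction. AT2G43590 was 1.19-fold lower in starved roots, a log2 difference of -0.25. AT4G01870 was 1.22-fold higher, a log2 difference of 0.29. The tested probe sets as a whole had an SD of 0.24 in this log2 difference, so both genes lay little more than 1 such SD from 0. Ribosomal RNA gave a high signal on the starved array at 48 h: the 25S control read 795.4 there and 73.1 or less elsewhere. Its part in the 48 h differences was not tested. Only 6 probe sets, 0.0429% of those tested, were at least 2-fold higher in starved roots at 48 h. Whether the difference at 96 h exceeded that at 48 h could not be tested, because 1 array per group leaves no residual. As a value, the 96 h difference was larger than the 48 h difference by 1.89 on the log2 scale for AT2G43590 and by 1.18 for AT4G01870.

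The level of the signal also bears on such folds. Among the 4874 tested probe sets within 0.5 of the mean log2 level of AT2G43590, 0.246% were at least 2-fold higher in starved roots at 96 h, and 0.0205% at 48 h. Among the 5085 within 0.5 of the mean level of AT4G01870, the shares were 0.413% and 0.0393%. AT4G01870 read 36.5 in the control at 48 h, near the 40th percentile of that array, 29.6, which is the limit of the filter. Detection calls were not used here, so whether this signal stood above background is not known.

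The 2 solutions were next set apart over time. In starved roots AT2G43590 was 2.83-fold higher at 96 h than at 48 h, and AT4G01870 was 2.66-fold higher, while 1.56% of tested probe sets were at least 2-fold higher in that comparison. In control roots AT2G43590 was 1.31-fold lower at 96 h than at 48 h and AT4G01870 was 1.17-fold higher, with 1.21% of probe sets at least 2-fold higher in that comparison and 0.4% as much lower. The signal of AT2G43590 in starved roots at 96 h was also 2.38-fold above the highest of the other 3 arrays, the control at 48 h. That of AT4G01870 was 2.66-fold above its highest other array, the starved roots at 48 h. The other 3 arrays spanned 1.31-fold for AT2G43590 and 1.22-fold for AT4G01870.

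A starved 96 h signal at least 2-fold above each of the other 3 arrays was found for 25 tested probe sets (0.179%), of which 11 had a single gene. By the gap to the highest other array, AT4G01870 and AT2G43590 held places 4 and 9 of the 25. Among the 11 with a single gene they held places 2 and 3, behind AT4G01390. Since the genes were chosen for a high signal on this array, nothing is read from these places.

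Both arrays at 96 h stood at an end in most of their housekeeping probe sets. Of the 16 housekeeping probe sets for actin, GAPDH and ubiquitin, 15 were lowest on the control array at 96 h and 12 were highest on the starved array at 96 h, the array on which both genes were high. The 6 housekeeping probe sets at the 3′ end of actin, GAPDH and ubiquitin transcripts were all higher on the starved than on the control array at 96 h, with a median log2 difference of 0.58 and a range from 0.10 to 0.74. At 48 h the median was 0.02. When the arrays were scaled to these probe sets instead, the median of all tested probe sets at 96 h moved to -0.41. The 96 h log2 differences were then 1.24 for AT2G43590 and 1.09 for AT4G01870, which is 1.64 and 1.49 above that median. Outside the housekeeping sets, the CreX-3 and CreX-5 control probe sets read 855 and 708 on the control array at 96 h. On the starved array at 96 h they read 1758 and 1423. At 48 h they read 1495 and 1274 on the control array and 1723 and 1589 on the starved array. The part of these array differences in the result was not tested. With the control array at 48 h in place of the control at 96 h, starved roots at 96 h were 2.38-fold higher for AT2G43590 and 3.26-fold higher for AT4G01870. This comparison was added after the data were seen, and it joins starvation with the difference in harvest time.

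A pattern of late difference was defined by at least 2-fold higher signal in starved roots at 96 h and an absolute log2 difference under 0.5 at 48 h. It held for 34 tested probe sets, 0.243% of them, and 16 of these had a single gene. Leaving out the 18 probe sets without a single gene, AT2G43590 and AT4G01870 had the highest 96 h differences of the 16. They were chosen on this difference, so nothing is read from their places. Among the other 14 were AT2G48080 (log2 difference 1.21 at 96 h), the sugar transporter family gene AT5G18840 (1.20), the chitinase gene CHI (AT2G43570; 1.18), the CAP-family gene AT4G25790 (1.17), the ankyrin repeat gene AT2G26210 (1.16) and the peroxidase gene AT3G49960 (1.13).

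The genes with this pattern reached it in different ways. In 20 of the 34 probe sets the starved roots were at least 2-fold higher at 96 h than at 48 h. The peroxidase gene AT3G49960 was not among these. Its control signal was 211.9 at 48 h and 94.4 at 96 h, and its starved signal 290.2 and 226.1, so that the low control at 96 h set its difference apart. AT5G44730 stood at the other end, with 65.2 and 73.0 at 48 h and 207.8 and 434.1 at 96 h, higher at 96 h in both solutions. In AT2G43590 and AT4G01870 the control signals at the 2 times lay within 1.31-fold and 1.17-fold of each other. Of the 16 single genes, 9 had a starved 96 h signal at least 2-fold above each of the other arrays.

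**Figure D2:**
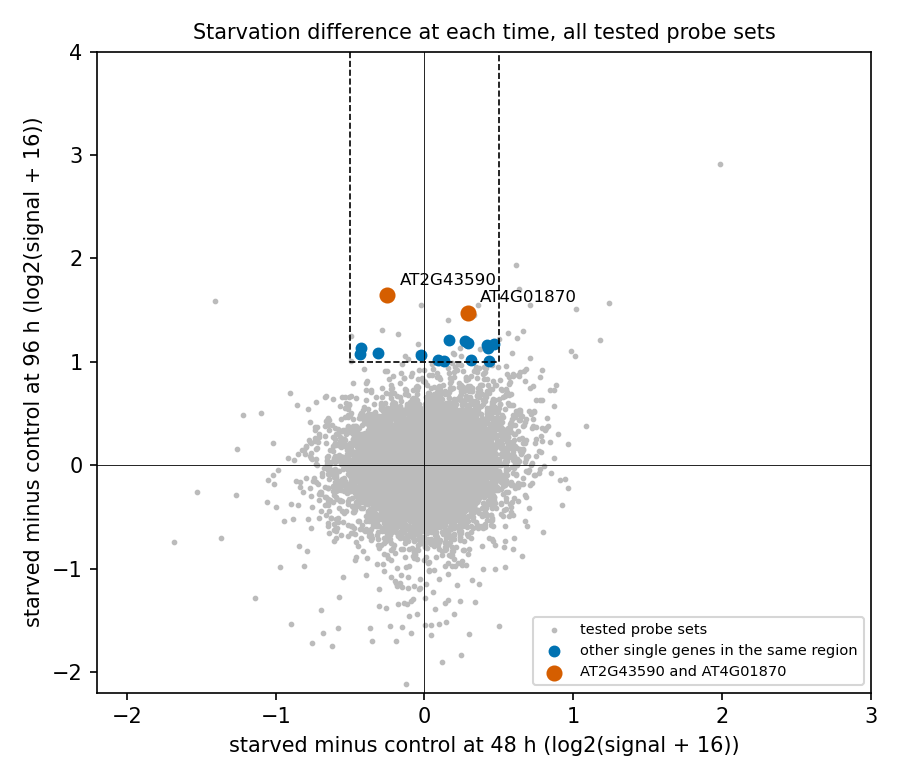
Log2 difference of starved against control roots at 48 h (horizontal axis) and at 96 h (vertical axis) for the 13998 tested probe sets in grey, each from 1 array per group. Dashed lines bound the region of late difference, which holds AT2G43590 and AT4G01870 (orange), the other 14 single genes (blue) and 18 probe sets without a single gene.

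AT2G43590 stands in a row of related genes, which allowed its nearest relatives on the chromosome to be compared. In the order of protein-coding genes that RefSeq gives for assembly TAIR10.1, CHI (AT2G43570) and AT2G43580 come before it, and AT2G43600, AT2G43610 and AT2G43620 after it. All 5 are chitinase-family genes and all had a named probe set. Because such copies are alike in sequence, how far the probe sets measured each other's transcripts is uncertain. CHI gave 241.5 (control) and 299.4 (starved) at 48 h, against 95.1 and 235.3 at 96 h. Its 2.26-fold difference at 96 h came with a control signal 2.32-fold below that at 48 h, whereas its starved signal was 1.26-fold lower at 96 h than at 48 h. With the control at 48 h in place of that at 96 h, the log2 difference of CHI was -0.04. It was 0.75 with equal housekeeping controls, which is 1.16 above the median of all tested probe sets in that setting, and 0.91 with a pseudocount of 64.

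The genes on the other side of AT2G43590 had differences under 1.5-fold at both times. AT2G43610 gave 1052.0 (control) and 981.3 (starved) at 48 h, against 1008.9 and 1230.7 at 96 h. AT2G43600 read 41.2 at 48 h and 35.4 at 96 h in the control, and 26.3 and 42.3 when starved. AT2G43620 gave 27.4 (control) and 29.9 (starved) at 48 h, against 39.1 and 39.5 at 96 h. In these 3 genes the log2 differences at 96 h were 0.28, 0.18 and 0.01, against 1.64 for AT2G43590 between them and CHI. AT2G43580 measured 1.6, 11.9, 1.7 and 4.9 in control and starved roots at 48 h and at 96 h, did not pass the filter and has no fold that can be read.

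**Figure D3:**
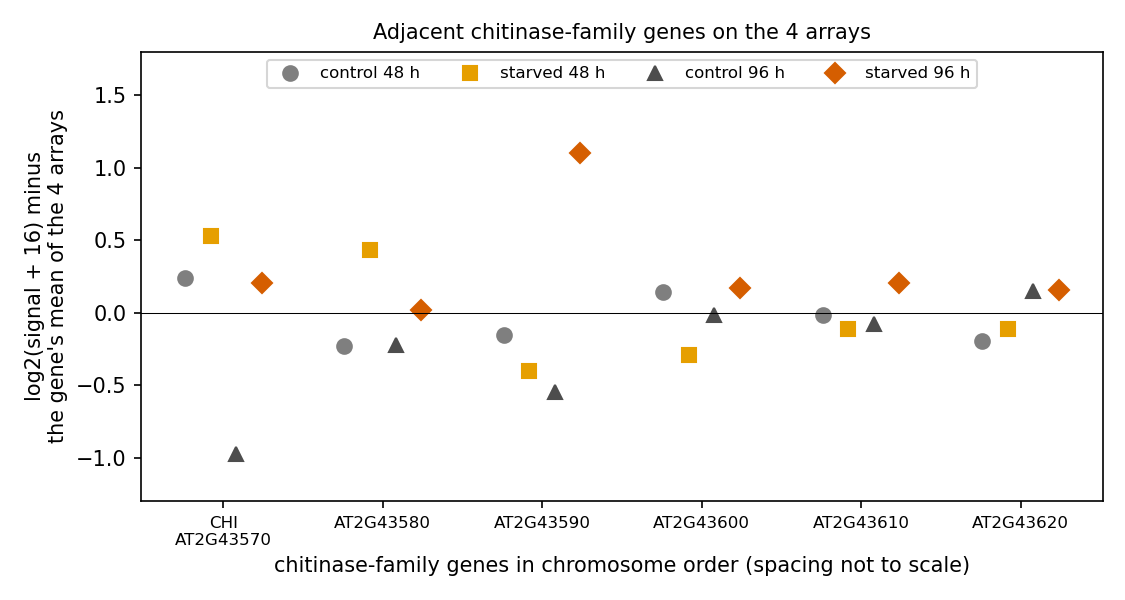
Log2(signal + 16) of 6 adjacent chitinase-family genes on the 4 arrays, each gene less its own mean (vertical axis), in chromosome order (horizontal axis). AT2G43590 is set apart by its high starved 96 h point and CHI by its low control 96 h point.

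The wider chitinase list held 24 genes, 15 of them with a probe set of known gene and 10 past the filter. Apart from AT2G43590, 1 of the 9 tested genes (CHI) was at least 2-fold higher in starved roots at 96 h, and 0 of the 9 were 2-fold lower, beside 0.357% and 0.493% of all tested probe sets. The median log2 difference of the 9 was 0.23 at 96 h and 0.06 at 48 h, beside 0.00 and -0.01 over all tested probe sets. ChiC (AT4G19810), a chitinase of the other large glycoside hydrolase family, came next to CHI. Its control signal was 139.1 at 48 h and 104.7 at 96 h, and its starved signal 158.1 and 207.8, a 1.85-fold difference at 96 h. All 9 were higher in starved roots at 96 h with the scaling used here, beside 6989 of the 13998 tested probe sets. However, 8 of the 9 were with quantile or cyclic loess normalization, 7 with equal medians and 2 with equal housekeeping controls. In that last setting all probe sets shift down together, and all 9 stayed above the median of all tested probe sets, with a list median 0.25 above it.

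The remaining tested chitinase genes lay between 1.01-fold and 1.29-fold at 96 h. The control and starved signals at this time were 257.2 and 336.6 for AT1G02360 and 71.4 and 86.8 for AT1G56680. They were 104.4 and 105.7 for AT4G01700, and 79.8 and 82.2 for AT3G47540. The 4 further genes of the list that did not pass the filter, AT4G19720, AT4G19730, AT4G19740 and AT4G19820, measured at most 24.2 on any array.

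AT4G01870 has 2 relatives with a similar TolB-like annotation, AT1G21670 and AT1G21680, and neither stood higher in starved roots at 96 h. AT1G21680 gave 124.9 (control) and 180.4 (starved) at 48 h, against 274.4 and 202.1 at 96 h. It was thus 1.39-fold higher in starved roots at 48 h and 1.33-fold lower at 96 h. AT1G21670 measured 22.0, 28.4, 20.2 and 18.9 in control and starved roots at 48 h and at 96 h, and did not pass the filter.

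The tested neighbours of AT4G01870 on chromosome 4 had starvation differences under 1.5-fold at both times. Of the 6 nearest protein-coding genes, 3 on either side, 3 had a named probe set. AT4G01860, the next one before it, read 88.1 at 48 h and 81.0 at 96 h in the control, and 54.5 and 105.9 when starved. AT4G01880, the next one after it, gave 59.1 (control) and 57.8 (starved) at 48 h, against 47.0 and 55.9 at 96 h. The log2 differences of these 2 genes at 96 h were 0.33 and 0.19, against 1.47 for AT4G01870. AT4G01890 measured between 18.9 and 28.0 on the 4 arrays and did not pass the filter.

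The genes most like each of the 2 in pattern were found by the Euclidean distance between the 4 log2 values, each gene less its own mean, over the 7587 single-gene probe sets. With 4 arrays and no replicates, this likeness is a description. The gene nearest to AT2G43590 was AT4G01870, at a distance of 0.48 (Pearson r = 0.93 over the 4 arrays). Seen from AT4G01870, AT2G43590 came in place 8. After AT4G01870, the genes nearest to AT2G43590 were AT2G48080 (0.49), AT5G18840 (0.51), the RING finger gene AT2G38970 (0.53), GSTU22 (0.53) and AT2G26210 (0.59).

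GSTU22 (AT1G78340) encodes a glutathione transferase of the tau class, enzymes that couple glutathione to toxic compounds. Its control signal was 68.1 at 48 h and 70.1 at 96 h, and its starved signal 66.0 and 147.1. The starved 96 h array stood alone, as it did for AT2G43590, with a 1.89-fold difference. AT2G48080 gave 56.7 (control) and 65.6 (starved) at 48 h, against 47.2 and 130.0 at 96 h.

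The genes nearest to AT4G01870 were AT5G18840 (0.22), AT1G05060 (0.39), AT4G01390 (0.40), the thaumatin-family gene AT4G36010 (0.42), AT2G26210 (0.42) and AT5G47060 (0.45). AT5G18840 read 74.3 at 48 h and 91.4 at 96 h in the control, and 93.2 and 230.8 when starved. It followed AT4G01870 on each array, with a Pearson r of 0.999 over the 4 arrays. Thaumatin-like proteins form another class of pathogenesis-related proteins, and AT4G36010 gave 52.2 (control) and 62.1 (starved) at 48 h, against 73.1 and 150.4 at 96 h. AT5G18840 and AT2G26210 were among the 6 nearest of both genes.

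**Figure D4:**
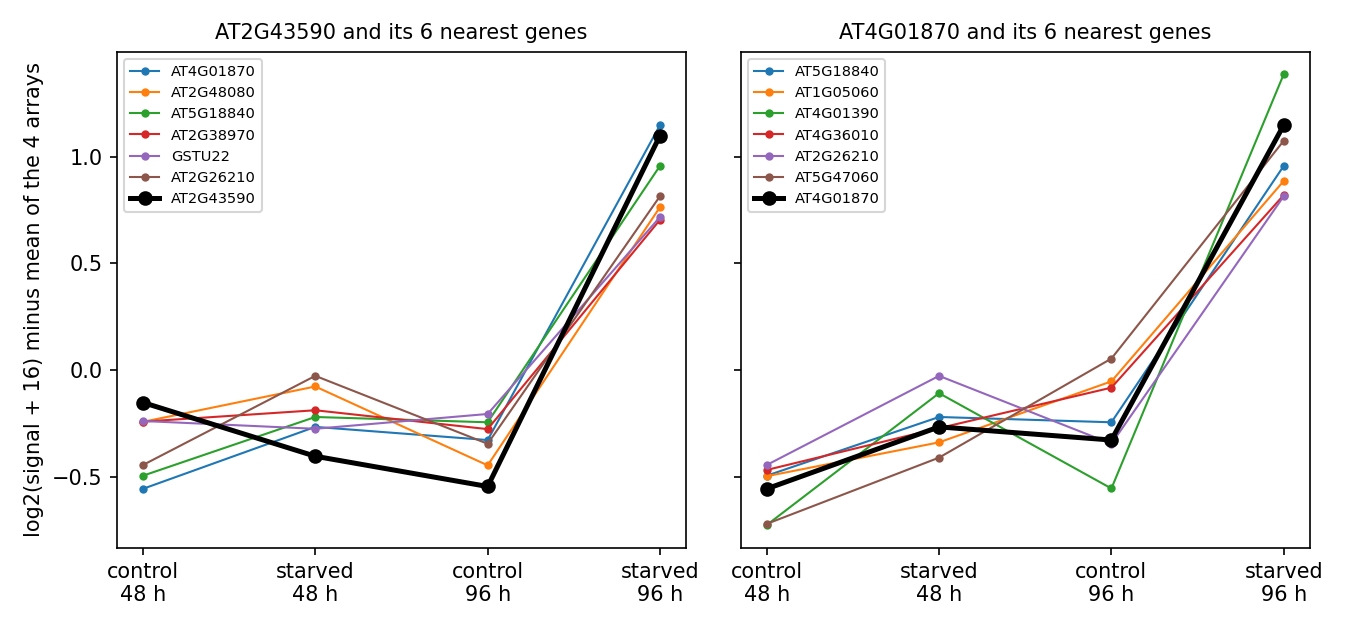
Log2(signal + 16) less the mean of the 4 arrays (vertical axis) for AT2G43590 (left, black) and AT4G01870 (right, black) with the 6 nearest genes of each in colour, on the 4 arrays in the order shown on the horizontal axis. Lines join the values of a gene and are no time course. Every curve is highest on the starved 96 h array, and on the left only AT2G43590 is lower than its control 48 h value on both middle arrays.

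Other stress genes were read from lists of 13 further groups and markers. Few of their genes had a named probe set. Of the 29 detoxification genes 4 had one, and only GSTU22 and UGT73B5 passed the filter. UGT73B5, a glucosyltransferase, read 37.9 (control) and 39.6 (starved) at 96 h. Of 6 genes known to respond to mitochondrial stress, 4 were tested, and 0 of the 4 were at least 2-fold higher at 96 h, beside 0.357% of all tested probe sets. Their median log2 difference was 0.51 at 96 h and 0.04 at 48 h, beside 0.00 and -0.01 over all tested probe sets.

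The 4 tested mitochondrial stress genes were higher in starved roots at 96 h under all 5 scalings. With the scaling used here, 6989 of the 13998 tested probe sets were. AT5G09570 reached the limit of the filter only on the starved arrays, and AT2G21640 and AT5G51440 only on the 96 h arrays. The filter thus took them in through arrays on which they were high, so their count and median are a description only. AT5G09570 read 25.8 at 48 h and 25.4 at 96 h in the control, and 39.3 and 60.9 when starved. AT2G21640 gave 20.9 (control) and 20.1 (starved) at 48 h, against 33.1 and 55.6 at 96 h. NDB2 (AT4G05020), an alternative NADH dehydrogenase of the respiratory chain, read 81.1 at 48 h and 77.5 at 96 h in the control, and 68.99 and 112.4 when starved. The small heat shock protein gene AT5G51440 gave 10.3 (control) and 12.6 (starved) at 48 h, against 43.6 and 67.3 at 96 h.

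No other list had a gene 2-fold higher or lower in starved roots at 96 h. On the lists of pathogenesis-related and salicylate genes and of jasmonate genes, PDF1.2, GRX480 and THI2.1 had a named probe set and none of them passed the filter, with signals of at most 19.7. The heat shock list had no named probe set. The zinc finger gene STZ (AT1G27730), an early stress regulator, read 240.8 (control) and 220.3 (starved) at 96 h, and EIN3 (AT3G20770), a transcription factor of ethylene signalling, 592.3 and 429.9. The unfolded protein response genes BZIP60 (AT1G42990) and ATERDJ3B (AT3G62600) had log2 differences of -0.08 and -0.11. The cold and drought genes COR47 (AT1G20440) and LTI30 (AT3G50970) stood at 0.38 and 0.39 at 96 h, and at 0.33 and 0.02 at 48 h. With equal housekeeping controls 0 of these 2 were higher at 96 h, while both stayed above the median of all tested probe sets. COR15A (AT2G42540) of the same list measured 7.2, 15.0, 14.4 and 29.9 in control and starved roots at 48 h and at 96 h, and did not pass the filter. Among senescence genes the log2 differences at 96 h were 0.70 for WRKY6 (AT1G62300), -0.33 for SAG101 (AT5G14930) and -0.97 for WRKY53 (AT4G23810). The plain signals of WRKY53 at 96 h, 76.0 (control) and 30.9 (starved), were more than 2-fold apart. The log2 differences of the root markers at 48 h and 96 h were 0.60 and 0.58 for the root hair gene EXPA18 (AT1G62980), 0.56 and 0.32 for the root hair gene EXPA7 (AT1G12560), and -0.28 and 0.42 for AT1G62500, a cortex marker.

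Genes known to be induced by low oxygen differed most between the harvest times, and less between the solutions. The summed signal of the 11 tested genes was 1361.4 (control) and 1741.0 (starved) at 48 h, against 7716 and 11525 at 96 h. All 11 were higher in starved than in control roots at 96 h with the scaling used here, beside 6989 of the 13998 tested probe sets. With equal housekeeping controls 7 were, while all 11 stayed above the median of all tested probe sets, which that scaling shifts by -0.41. None of the 11 was 2-fold higher, where 0.357% of all tested probe sets were. Their median log2 difference of starved against control roots was 0.67 at 96 h and 0.10 at 48 h. Over all tested probe sets it was 0.00 and -0.01. In control roots, 96 h against 48 h, the median of the 11 was 2.68. The widest log2 differences were those of AT4G33560 (0.93), AT4G10270 (0.91) and AT4G24110 (0.88). In control roots 10 of the 11 were at least 2-fold higher at 96 h than at 48 h, beside 1.21% of all tested probe sets. AT5G10040, AT3G29970, AT4G33560 and AT4G24110 were below the limit of the filter on both 48 h arrays and passed it only through the 96 h arrays. The count of 10 is therefore in part set by the filter and is a description only. In control roots over time AT2G43590 was 1.31-fold lower and AT4G01870 was 1.17-fold higher. The part of low oxygen in the starved 96 h signals of AT2G43590 and AT4G01870 was not tested.

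The starvation differences of both genes kept their direction under each of 6 other settings of pseudocount and scaling. At 96 h the log2 difference ran from 1.19 to 1.88 for AT2G43590 and from 1.00 to 1.75 for AT4G01870. At 48 h it ran from -0.30 to -0.16 and from 0.16 to 0.39. AT4G01870 was 1.9988-fold higher at 96 h with a pseudocount of 64, just short of 2-fold.

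**Figure D5:**
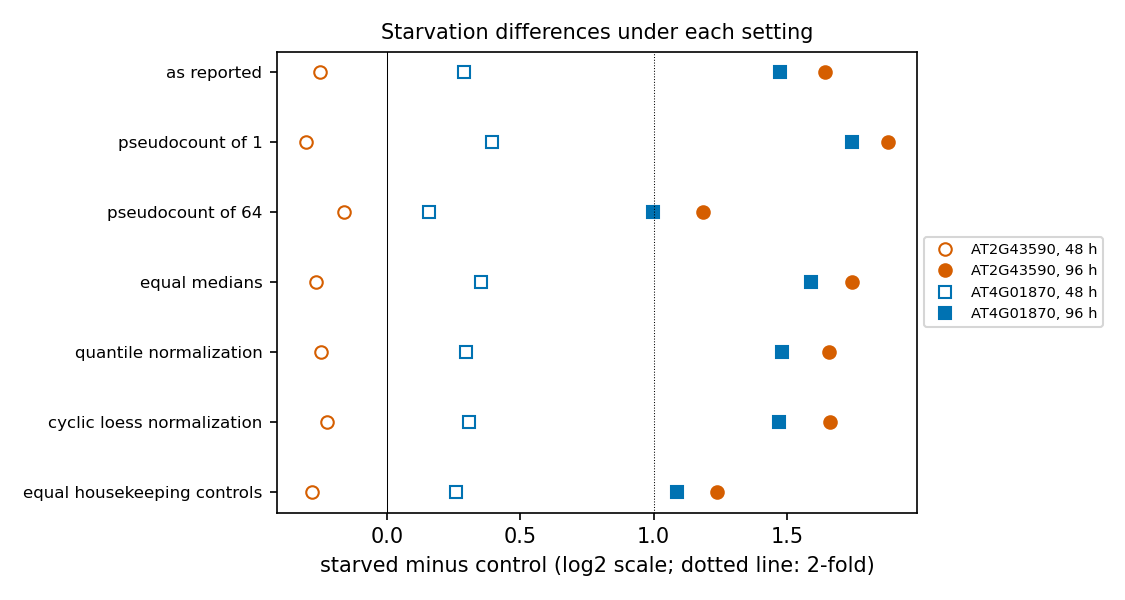
Log2 difference of starved against control roots (horizontal axis) at 48 h (open) and 96 h (filled) for AT2G43590 (circles) and AT4G01870 (squares) under the reported setting and 6 others (vertical axis), 1 array per group. The filled points lie between 1.00 and 1.88 and the open ones between -0.30 and 0.39.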

How the data were processed

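The authors deposited linear signal intensities, which came from MAS5 according to the submitters' processing notes. No source used here gives its version, its settings or the genome build, so no coordinates are printed. Every array had a 2% trimmed mean of 100.01 as deposited. Groups were taken from the sample titles. Signals of all 22810 probe sets were brought to a 2% trimmed mean of 100, and the 64 control probe sets were then set aside. Differences were taken on log2(signal + 16). A probe set counts as tested, that is, as compared with a fold of 2, if it reached the array's 40th percentile on 2 or more of the 4 arrays, as 13998 did and 8748 did not. Of 22746 probe sets, 13513 had 1 gene in the platform annotation, 503 several and 8730 none listed. Of the 13513, 13436 matched RefSeq's table (TAIR10.1) by gene identifier.

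No p-value was computed. Each group held 1 array, and an additive fit of solution and time would count the difference between the times, which is the pattern of these genes, as error. The members and the 15 lists of 199 genes, of which 54 had a named probe set and 42 were tested, were chosen with earlier results of these data known. Named were all measured chitinase-family and TolB-like genes, up to 3 genes of each other list by their 96 h difference, the 6 nearest genes by distance, up to 3 genes on either side on the chromosome, and neighbours by rank. Further genes with the late difference, and the fourth mitochondrial stress gene, were chosen after their values were seen. Quantile and cyclic loess normalization used limma 3.58.1 in R 4.3.3, and the rest Python 3.11.15. The code for counts, folds and distances was checked on simulated data with less noise and wider changes than those of these genes. That check does not give the precision of the values here.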

Additional observations from a re-analysis of the deposited data

Results flagged for a closer look

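AT2G43590 stood in opposite directions at the 2 times, with a log2 difference of starved against control roots of -0.25 at 48 h and 1.64 at 96 h. The 48 h value was small, little more than 1 SD from 0, with an SD of 0.24 over all tested probe sets. The difference between the times was not tested, since each group held 1 array.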

How the results depend on the processing

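No paired analysis was possible because each group held 1 array. A value was counted as moved when it shifted by more than the SD of that difference over all tested probe sets, as no replicates give a spread, and a count when it shifted by more than 1.5 times. No value of either gene changed direction under the alternatives run. With a pseudocount of 64 the log2 differences at 96 h were 1.19 for AT2G43590 and 1.00 for AT4G01870, that of AT4G01870 in starved roots over time was 0.96, and the excess of the 96 h over the 48 h difference was 1.35 for AT2G43590. With equal housekeeping controls the 96 h differences were 1.24 and 1.09, and the excess was 1.52 for AT2G43590 and 0.83 for AT4G01870. With the control 48 h array in place of the control 96 h array, an alternative chosen after seeing the data, AT2G43590 stood at 1.25 and AT4G01870 at 1.70.

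The count of 34 probe sets with the late difference was 63 with a pseudocount of 1, 8 with 64, 6 with equal housekeeping controls, 52 with no filter on low signal and 20 with a 60th percentile filter. Both genes had the pattern in each of these except that AT4G01870 missed it with a pseudocount of 64. The count of 50 at 96 h was 96 with a pseudocount of 1, 12 with 64, 13 with equal housekeeping controls and 28 with the stricter filter. The count of 6 at 48 h was 40 with a pseudocount of 1, 1 with 64, 21 with equal medians, 22 without the filter and 3 with the stricter filter. At 96 h the higher side made up 42.0% of the 2-fold differences, and 3.67% with equal housekeeping controls, which shift the median of all tested probe sets by -0.41. At 48 h it made up 30.0%, 45.7% with equal medians and 19.0% with equal housekeeping controls.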
